A study of Mus musculus with 10 samples.

Results

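The class II enhanceosome is the group of DNA-binding factors that assembles on the promoters of the major histocompatibility complex class II genes, and 10 of its genes and of the histone acetyltransferases recruited to it were examined in osteocytes. They were taken by gene symbol from a table of 22548 genes: Rfx5, Rfxap and Rfxank of the RFX complex, Nfya, Nfyb and Nfyc of the NF-Y complex, Creb1, and the acetyltransferases Crebbp, Ep300 and Kat2b. All 10 were present and passed the filter on low counts. The choice by symbol used no value of the table itself, although earlier results of these data were known when the genes were picked. Osteocytes, the cells embedded in mineralized bone, were isolated from male C57BL/6 mice, labelled as 8 wks old, by repeated digestion of bone pieces with collagenase and EDTA, and their RNA was sequenced. The 5 No MM mice (1 to 5) received no myeloma cells, and the 5 MM mice (6 to 10) had been injected in the femur with Vk12598, a transplantable mouse myeloma line. The study's methods describe control mice as injected with the same volume of PBS. Myeloma in the mice was assessed 6 weeks after the injection. The labels give no genetic alteration in either group, and no cell sorting was described.

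RFX5, RFXAP and RFXANK form a trimer that binds the X box of class II promoters, CREB1 binds the adjoining cyclic AMP response element, and the trimer NF-Y binds the CCAAT sequence of the Y box. These factors are made in most cells, and the platform they form is switched on by the class II transactivator CIITA, which does not bind DNA itself and is made mainly in antigen-presenting cells. CIITA in turn recruits CBP (Crebbp), p300 (Ep300) and PCAF (Kat2b), which acetylate histones and other proteins, CIITA among them.

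The libraries held 31099174 to 39466332 counted reads, and the totals of the groups gave p = 0.325 in a two-sided exact permutation test over all assignments (n = 5 per group). Libraries No MM 3 and No MM 4 stood apart, with 26.8% and 29.3% of their reads in immunoglobulin genes against 0.644 to 3.98% in the other 8. The summed level of 7 plasma cell markers was 9265 and 9283 CPM (reads scaled to library size) in these libraries and 583 to 1266 CPM elsewhere, and 6 of the 7 markers were higher in both than in every other library. In the same libraries 5 of 6 B cell markers, 6 of 6 erythroid, 6 of 7 neutrophil, 4 of 6 dendritic cell and 3 of 6 osteocyte markers were lower than in every other library. The remaining B cell marker, Cd79b, was higher there, at 165.7 and 212.7 CPM against 60.9 to 123.4 CPM in the other 8. No MM 1 had the highest erythroid marker sum, 57515 CPM against 885 to 28543 CPM in the other 9 libraries. The osteocyte markers Sost, Dmp1, Phex, Mepe, Fgf23 and Pdpn were detected in all libraries and summed to 308 to 2417 CPM in No MM and 382 to 1703 CPM in MM. The sums in No MM 3 and No MM 4 were 422 and 308 CPM. Skeletal muscle markers summed to 713 to 5437 CPM in No MM and 517 to 4779 CPM in MM. The T and NK cell markers summed to 33.2 to 112 CPM in No MM and 61.0 to 125 CPM in MM. Of these 6 T and NK cell markers, 3 were lower in both No MM 3 and No MM 4 than in every other library. The preparations are therefore mixtures by their markers, and in such bulk samples fewer cells of a type and less RNA per cell cannot be told apart.

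Class II promoter sequences with letters of the kind that each complex reads are shown first. They were found by a search for letters only. Promoter windows of 300 bases (RefSeq, GRCm38.p6) were matched for 9 of the 10 genes and for 6 of 8 class II pathway genes. In the following stretches, written 5′ to 3′ on the gene's strand, capitals mark an X box match (GNAAC), a full cyclic AMP response element (TGACGTCA) where there is one, and the reverse complement of the Y box sequence, which reads ATTGG.
H2-Aa (chr17:34287847-34287924, minus strand): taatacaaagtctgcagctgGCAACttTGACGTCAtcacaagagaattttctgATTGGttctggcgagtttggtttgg
H2-Eb1 (chr17:34305756-34305832, plus strand): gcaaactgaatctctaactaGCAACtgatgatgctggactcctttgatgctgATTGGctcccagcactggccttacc
H2-DMb1 (chr17:34153077-34153154, plus strand): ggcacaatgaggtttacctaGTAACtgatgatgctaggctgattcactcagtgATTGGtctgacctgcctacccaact
H2-Oa (chr17:34092283-34092360, plus strand): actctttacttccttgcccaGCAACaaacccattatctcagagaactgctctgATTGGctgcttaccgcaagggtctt
H2-Ob (chr17:34238798-34238872, plus strand): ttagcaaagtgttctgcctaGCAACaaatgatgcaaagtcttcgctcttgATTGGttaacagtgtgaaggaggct
In these 5 class II promoters 25 to 28 bases lay between the X box match and the inverted CCAAT, and the X box match began 76 to 94 bases before the annotated start. The pair at a spacing of 15 to 40 bases, searched in both orientations and chosen after the sequences had been seen, was present in 5 of 6 class II genes, in 4.23% of all 32851 windows, and in 0 of the 9 matched enhanceosome and cofactor genes. CCAAT alone, on either strand, was found in 6 of 6 class II genes and in 37.4% of all windows. Of the examined genes, Rfx5, Rfxank, Nfya, Nfyc and Kat2b had it in at least 1 of their windows. TGACGTCA was found in 1.79% of windows, in H2-Aa and in 0 of the 9 genes. GNAAC was found in 84.8% of windows, on either strand, and so separates few genes. The windows of Rfxank and H2-Eb1 each held 2 CCAAT matches. That of Rfx5, the gene described first below, also held 2, in capitals here.
Rfx5 (chr3:94953975-94954078, plus strand): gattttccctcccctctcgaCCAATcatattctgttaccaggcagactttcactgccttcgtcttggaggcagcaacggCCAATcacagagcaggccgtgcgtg
A match is a description of the letters and not evidence of binding.

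At the level of the whole group, none of the 10 genes passed the test between MM and No MM. No gene had an adjusted p under 0.05 by edgeR's quasi-likelihood test, as held for 0% of the 16186 genes tested, of which 2281 had an unadjusted p under 0.05. Unadjusted p-values under 0.05 were found for 0 of the 10 genes in either direction, against 3.81% of all tested genes that were higher in MM and 10.3% that were lower. The 2 groups of 5 libraries overlapped for all 10 genes, while 1.41% of tested genes did not overlap. DESeq2 gave an adjusted p under 0.05 to 224 genes, 1.34% of those to which it gave an adjusted p, and to 0 of the 10. The log2 fold change (MM over No MM) was above 0 for 7 genes and below 0 for 3, with a median of 0.08 against -0.03 over all tested genes. For 7 of the 10 genes the 95% interval lay within a change of 1.5-fold in either direction, and the widest bound, for Crebbp, was 1.78-fold.

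**Figure D1:**
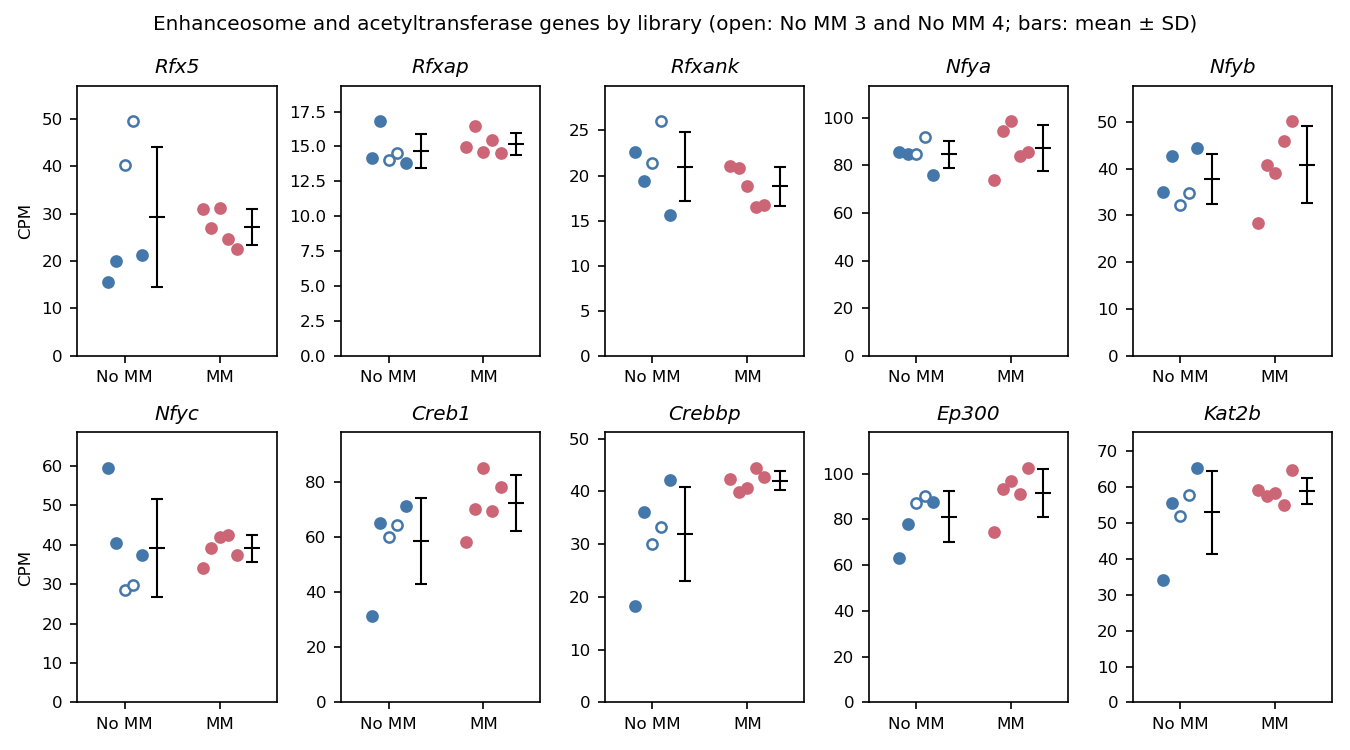
CPM of each gene (vertical axis, linear, from 0) in each of the 5 No MM (blue) and 5 MM (red) libraries, with mean ± SD beside each group and No MM 3 and No MM 4 drawn open. Rfx5 is highest in the 2 open libraries, at 40.2 and 49.5 CPM, and Creb1, Crebbp, Ep300 and Kat2b are lowest in No MM 1.

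Rfx5, the DNA-contacting subunit of the RFX trimer (chromosome 3, 94954075 to 94961561, plus strand), had the largest spread of the 10 genes within No MM, with an SD of log2 CPM of 0.71. Of all tested genes 63.1% had a smaller SD within No MM, and the median was 0.56. The level of Rfx5 in No MM 1 to 5 was 15.6, 19.9, 40.2, 49.5 and 21.2 CPM, and in MM 6 to 10 it was 30.9, 27.0, 31.1, 24.7 and 22.4 CPM. The 2 highest values belonged to No MM 3 and No MM 4, and the 3 lowest to the other No MM mice, so that all MM libraries lay between these sets. Over all 10 libraries the means were 29.3 ± 14.7 (SD, n = 5) and 27.2 ± 3.81 CPM (n = 5), and the log2 fold change was -0.11 (SE 0.31, adjusted p = 0.896). Without No MM 3 and No MM 4 the No MM mean was 18.9 ± 2.93 CPM (n = 3), and the log2 fold change was 0.51 (SE 0.17, 95% interval 0.12 to 0.90). In that fit all 5 MM libraries lay above the 3 remaining No MM libraries. The edgeR p was 0.0165 and the adjusted p 0.643 over 16600 genes. Of these genes 2.51% were higher at an unadjusted p under 0.05 and 2.49% had MM libraries that all lay above. The sign of the Rfx5 difference therefore rested on the 2 libraries rich in plasma cell markers, and no adjusted test called it in either fit. The part of plasma cell RNA in the Rfx5 level was not tested.

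**Figure D2:**
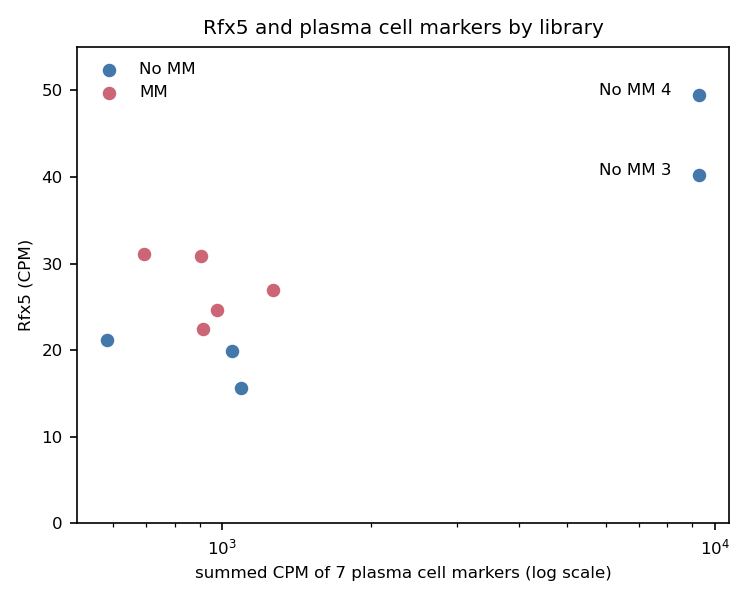
Rfx5 level (CPM, vertical axis) against the summed CPM of 7 plasma cell markers (horizontal axis, log scale), 1 point per library. No MM 3 and No MM 4 lie alone at the upper right with 9265 and 9283 CPM of markers, and among the other 8 libraries the 5 MM points lie above the 3 No MM points.

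The 3 tested genes whose log2 CPM followed Rfx5 most closely were Stx4a, Ppef2 and Celf4. Over the 10 libraries Pearson's r was 0.989, 0.981 and 0.979, and over the 8 libraries without No MM 3 and No MM 4 it was 0.971, 0.963 and 0.952. Stx4a, a syntaxin of the plasma membrane, stood at 103 and 119 CPM in No MM 3 and No MM 4 and at 54.2 to 85.9 CPM in the others. Ppef2 reached at most 1.85 CPM and Celf4 4.39 CPM, so that few reads lie behind both. All points share libraries and depth, and these values are descriptions only.

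Rfxap, the RFX-associated subunit (chromosome 3, 54803115 to 54807791, minus strand), was among the steadiest genes. Its level was 14.2, 16.8, 14.0, 14.5 and 13.8 CPM in No MM 1 to 5 and 15.0, 16.5, 14.6, 15.4 and 14.5 CPM in MM 6 to 10. The groups overlapped throughout, with No MM 2 the highest library. The SD of log2 CPM within No MM was 0.11, a value below which 1.56% of tested genes lay, against a median of 0.56 over all genes. The log2 fold change was 0.05 (SE 0.14, adjusted p = 0.896), with an interval of -0.27 to 0.37.

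Rfxank, the ankyrin repeat subunit (chromosome 8, 70130812 to 70139197, minus strand), had 22.6, 19.3, 21.4, 26.0 and 15.6 CPM in No MM 1 to 5. In MM 6 to 10 it had 21.0, 20.9, 18.9, 16.5 and 16.7 CPM. All 5 MM values lay inside the No MM range and below the No MM median, and the log2 fold change was -0.16 (SE 0.17, adjusted p = 0.687). It was -0.07 without No MM 4, -0.25 without No MM 5 and -0.05 without No MM 3 and No MM 4. Rfxank, like Rfx5, was highest in No MM 4. Pearson's r of log2 CPM with Rfx5 over the 10 libraries was -0.169 for Rfxap and 0.486 for Rfxank. Without No MM 3 and No MM 4 it was 0.161 for Rfxap and -0.0711 for Rfxank. Per kilobase (RPKM), the ratio of Rfx5 to Rfxap was 1.39 and 1.66 in No MM 3 and No MM 4, 0.534 to 0.745 in the other No MM libraries, and 0.749 to 1.04 in MM. Both Rfx5 and Rfxank share exon bases with a gene on the opposite strand, B230398E01Rik for 26.8% of the exon bases of Rfx5 and Nr2c2ap for 33.8% of those of Rfxank. The library kit keeps the strand, but whether counting used it is not given in the sources used here, so that reads of each pair may not have been separated. For B230398E01Rik the log2 fold change was 0.22 (adjusted p = 0.805), and for Nr2c2ap it was -0.23 (adjusted p = 0.530).

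Nfya, the subunit of NF-Y that gives the complex its sequence specificity (chromosome 17, 48386885 to 48409906, minus strand), was 85.6, 84.7, 84.8, 91.9 and 75.9 CPM in No MM 1 to 5. It was 73.6, 94.2, 98.5, 83.8 and 85.5 CPM in MM 6 to 10. Nfya was the steadiest of the 10 genes within No MM, with an SD of log2 CPM of 0.10 that was smaller in 1.03% of tested genes. Within MM its SD was 0.16, smaller in 22.2% of tested genes, and there it was not the steadiest. The log2 fold change was 0.04 (SE 0.13, 95% interval -0.23 to 0.32, adjusted p = 0.897).

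Nfyb and Nfyc encode the histone-fold subunits, which pair with each other before NFYA joins. Nfyb (chromosome 10, 82748701 to 82764144, minus strand) was 35.1, 42.7, 32.1, 34.7 and 44.3 CPM in No MM 1 to 5 and 28.4, 40.8, 39.1, 45.8 and 50.1 CPM in MM 6 to 10. Its lowest and its 2 highest values all fell in MM, and the log2 fold change was 0.11 (SE 0.18, adjusted p = 0.791). It was 0.22 without MM 6 and 0.03 without MM 10. Nfyc (chromosome 4, 120757438 to 120831572, minus strand) was 59.6, 40.5, 28.7, 29.7 and 37.3 CPM in No MM 1 to 5 and 34.2, 39.2, 41.9, 42.6 and 37.4 CPM in MM 6 to 10. Its highest library was No MM 1, its lowest were No MM 3 and No MM 4, and all MM values lay between them. The log2 fold change of Nfyc was -0.002 (SE 0.20, 95% interval -0.45 to 0.45, adjusted p = 0.997), and without No MM 3 and No MM 4 it was -0.25 (adjusted p = 0.659). Without No MM 1 it was 0.20 (adjusted p = 0.497). The RPKM ratio of Nfyc to Nfyb was 3.15 in No MM 1, which had the highest erythroid markers, and 1.38 to 2.24 in the other 9 libraries. Whether the erythroid share bears on Nfyc was not tested. Of the 76-base words in the Nfyc exons 16.9% also occur in Gm9144, so part of its reads may be ambiguous.

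**Figure D3:**
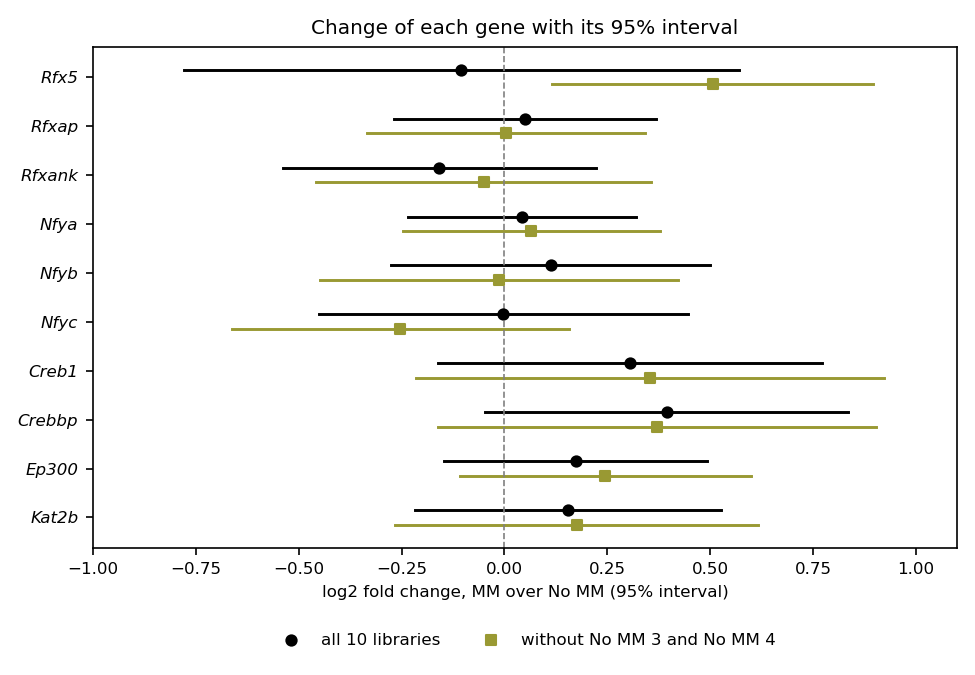
Log2 fold change, MM over No MM (horizontal axis), with its 95% interval for each gene, over all 10 libraries (black circles) and without No MM 3 and No MM 4 (olive squares). All black intervals include 0. The olive interval of Rfx5, 0.12 to 0.90, is the one that does not.

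Creb1, which encodes the cyclic AMP response element binding protein (chromosome 1, 64532645 to 64604548, plus strand), was 31.5, 65.3, 60.1, 64.5 and 71.3 CPM in No MM 1 to 5. In MM 6 to 10 it was 58.2, 70.4, 85.3, 69.7 and 78.2 CPM. No MM 1 lay far below the other 9 libraries, and MM 8 and MM 10 exceeded the highest No MM value. The means were 58.5 ± 15.6 and 72.4 ± 10.1 CPM (SD, n = 5 each), and the log2 fold change was 0.31 (SE 0.21, 95% interval -0.16 to 0.77, adjusted p = 0.512). Without No MM 1 the difference was 0.15 on the log2 scale (adjusted p = 0.566).

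Crebbp, the gene of the acetyltransferase CBP (chromosome 16, 4081328 to 4213407, minus strand), had the largest log2 fold change of the 10 in the fit of all libraries. Its level was 18.2, 36.0, 30.1, 33.2 and 42.2 CPM in No MM 1 to 5 and 42.4, 39.9, 40.7, 44.5 and 42.6 CPM in MM 6 to 10. All 5 MM values lay above the No MM median and 3 above the No MM maximum, set by No MM 5. The means were 32.0 ± 8.87 and 42.0 ± 1.80 CPM (SD, n = 5 each), and the log2 fold change was 0.39 (SE 0.20, 95% interval -0.05 to 0.83), with an unadjusted p of 0.0745 and an adjusted p of 0.396 by edgeR. The MM libraries were close together, with an SD of log2 CPM of 0.06, smaller in 1.58% of tested genes, against a median of 0.31. Without No MM 1, the lowest library, the log2 fold change was 0.25 (adjusted p = 0.384). Without No MM 5 it was 0.52 (adjusted p = 0.167).

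Ep300, the gene of the CBP paralog p300 (chromosome 15, 81585351 to 81652072, plus strand), was 63.3, 78.2, 87.0, 90.1 and 87.6 CPM in No MM 1 to 5. It was 74.4, 93.1, 96.7, 91.2 and 102.6 CPM in MM 6 to 10. Of the MM values 4 lay above every No MM value and the other, MM 6, lay below 4 of the No MM values. The log2 fold change was 0.17 (SE 0.15, 95% interval -0.15 to 0.49, adjusted p = 0.593). Kat2b, the gene of PCAF (chromosome 17, 53566861 to 53672720, plus strand), was 34.1, 55.6, 51.9, 57.8 and 65.4 CPM in No MM 1 to 5 and 59.2, 57.6, 58.2, 54.9 and 64.8 CPM in MM 6 to 10. All MM values lay inside the No MM range, and the log2 fold change was 0.15 (SE 0.17, 95% interval -0.22 to 0.53, adjusted p = 0.686).

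A common feature of Creb1, Crebbp, Ep300 and Kat2b was their low value in No MM 1, the lowest library for 5 of the 10 genes, Rfx5 included. Nfyc was highest in that library, and Rfxap, Rfxank, Nfya and Nfyb were at neither extreme. In No MM 1 all 6 erythroid markers and 5 of 7 neutrophil markers were higher than in every other library. The abundant neutrophil markers S100a8 and S100a9 were not, at 6176 and 7790 CPM against 8462 and 13360 CPM in No MM 5. The neutrophil marker sum was 21203 CPM in No MM 1 and 27309 CPM in No MM 5. The part of erythroid and neutrophil cells in the values of the 10 genes was not tested. Without No MM 1 the log2 fold change of Kat2b was 0.03 (adjusted p = 0.887) and that of Ep300 0.10 (adjusted p = 0.685).

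Compared per kilobase of the gene length in the deposited table, the mean levels of the 10 genes ran from 3.62 to 23.2 RPKM. The order of different genes depends on this length, and how it was derived is not given in the sources used here. The order of mean RPKM over 10 libraries was Nfya (23.2 ± 2.06, SD), Nfyc (19.5 ± 4.30), Kat2b (12.0 ± 1.88), Nfyb (10.6 ± 1.81), Ep300 (9.89 ± 1.32), Creb1 (7.82 ± 1.72), Rfxap (6.91 ± 0.465), Rfx5 (6.35 ± 2.29), Rfxank (5.41 ± 0.861) and Crebbp (3.62 ± 0.785). A neighbouring pair was taken to differ beyond its spread where the gap of the means exceeded the larger SD, which held for 3 of the 9 pairs. These were Nfyc over Kat2b, Ep300 over Creb1 and Rfxank over Crebbp, each in 10 of 10 libraries. The other 6 pairs did not differ beyond their spread. Without No MM 3 and No MM 4 the gap of Ep300 over Creb1, 1.91, no longer exceeded the larger SD, 1.94. Ep300 was still the higher in 8 of 8 libraries. The gap of Rfxap over Rfx5 then exceeded the larger SD, although Rfxap was the higher in only 6 of 8 libraries. The paralogs Ep300 and Crebbp stood at a ratio of 2.43 to 4.06 in No MM and 2.06 to 2.82 in MM, with Ep300 the higher in 10 of 10 libraries. The ratio of Kat2b to its paralog Kat2a was 0.520, 1.29, 0.498, 0.492 and 1.29 in No MM 1 to 5 and 0.962 to 1.30 in MM. It was thus low in No MM 1, No MM 3 and No MM 4 and inside the MM range in the other 2 No MM libraries.

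**Figure D4:**
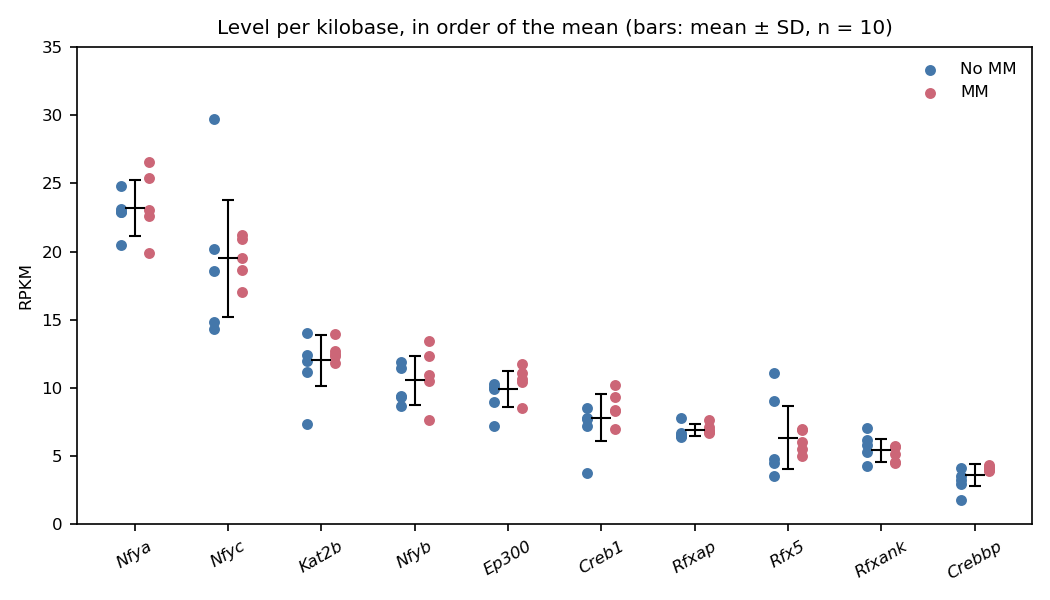
RPKM (vertical axis, linear, from 0) of the 10 genes in order of their mean, with 1 point per library (No MM blue, MM red) and bars for mean ± SD over 10 libraries. Nfya and Nfyc lie highest, at means of 23.2 and 19.5, and Crebbp lowest at 3.62.

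The genes around the enhanceosome were read from 7 lists of 79 genes, of which 76 were tested. The RFX family members Rfx4, Rfx6 and Rfx8 did not pass the filter on counts. None had an adjusted p under 0.05 by edgeR. At an unadjusted p under 0.05, 2 were higher and 3 lower in MM, 6.58% of those tested, beside the 3.81% and 10.3% over all genes given above. The class II list holds Ciita and 7 target genes, and 8 of 8 had a log2 fold change above 0, with a median of 0.42. Without No MM 3 and No MM 4, 4 of the 8 were above 0 and 4 below, with a median of -0.003. Since the study singled out Ciita on these samples, its change is not independent evidence. Ciita was 9.25 to 20.6 CPM in No MM and 22.2 to 38.6 CPM in MM, without overlap, with a log2 fold change of 1.08 (SE 0.27). Its unadjusted p was under 0.05 by edgeR. Its adjusted p was 0.315 by edgeR and 0.0324 by DESeq2, which called no other gene of the lists. Without No MM 3 and No MM 4 the log2 fold change of Ciita was 0.75. H2-Aa, H2-Ab1 and H2-Eb1, which encode the antigen-presenting chains, had log2 fold changes of 0.43, 0.42 and 0.38 with adjusted p from 0.667 to 0.683. Without the 2 libraries these were -0.03, -0.03 and 0.02. For H2-DMa and H2-DMb1, chains of the peptide-loading factor H2-DM, the log2 fold changes were 0.07 and 0.39 over all libraries and -0.07 and -0.03 without the 2. H2-Ob and H2-Oa, the chains of the peptide-loading modulator H2-O, had log2 fold changes of 0.60 and 0.78 (adjusted p = 0.406 and 0.423), and of 0.84 and 0.26 without the 2 libraries. Most markers of B cells and dendritic cells, which make these class II genes, were lower in No MM 3 and No MM 4. Cd79b was higher in both, and Itgax and Xcr1 lay inside the range of the other libraries. The part of these cells in the values was not tested.

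Among the other RFX factors, Rfx1 ranged from 20.8 to 23.3 CPM in MM and from 16.4 to 19.3 CPM in No MM, without overlap, with a log2 fold change of 0.28. Its p was 0.0541 by edgeR and 8.13e-04 by DESeq2, and its adjusted p was 0.361 and 0.0547. Without No MM 3 and No MM 4 it was 0.30. Rfx6, which was outside the tests, was 58.2 and 93.5 CPM (1800 and 2576 reads) in No MM 3 and No MM 4 and at most 1.54 CPM (59 reads) in the other 8 libraries. It was singled out after its values were seen, and DESeq2 gave it an adjusted p of 0.173. Rfx4 and Rfx8 had at most 16 reads in a library. Rfx2 and Rfx3 had log2 fold changes of -0.23 and 0.24, with adjusted p of 0.766 and 0.816. In the CREB and ATF list 4 of 10 genes were above 0 and 6 below. The endoplasmic reticulum-bound factors Creb3l2 and Creb3 had log2 fold changes of -1.45 and -0.54, both with an unadjusted p under 0.05 (adjusted p = 0.315 and 0.317), and Crem one of -0.98 (adjusted p = 0.371). Without the 2 plasma-marker-rich libraries these were -0.23, -0.35 and 0.13.

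Of the other histone acetyltransferases 6 were above 0 and 6 below. Kat6a, of the MYST family, was 51.9 to 83.2 CPM in No MM and 86.2 to 100.7 CPM in MM, without overlap, with a log2 fold change of 0.49, an unadjusted p under 0.05 and an adjusted p of 0.315. Without No MM 3 and No MM 4 it was 0.30. Kat8 and Kat2a had log2 fold changes of -0.46 and -0.46 (adjusted p = 0.389 and 0.448), and of -0.11 and 0.04 without the 2 libraries. SAGA and ATAC are the complexes in which PCAF and its paralog work, and 10 of their 19 listed subunits were above 0 and 9 below. Sgf29, which reads methylated histone tails, had a log2 fold change of -0.82 with an unadjusted p under 0.05 (adjusted p = 0.317). Usp22, a deubiquitinase, had one of -0.42 (adjusted p = 0.399) and Eny2 one of -0.30 (adjusted p = 0.362). Without the 2 libraries these were -0.25, -0.02 and -0.17. The opposing deacetylases and corepressors had 7 of 16 above 0 and a median of -0.01, with Hdac9 at 0.46 (adjusted p = 0.519) and Hdac11 at -0.33 (adjusted p = 0.540). In the list of other transactivator cofactors 5 of 7 were above 0, with Zxdc at 0.53 (adjusted p = 0.499), Ccnt1 at 0.19 (adjusted p = 0.678) and Smarca4 at -0.10 (adjusted p = 0.794).

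**Figure D5:**
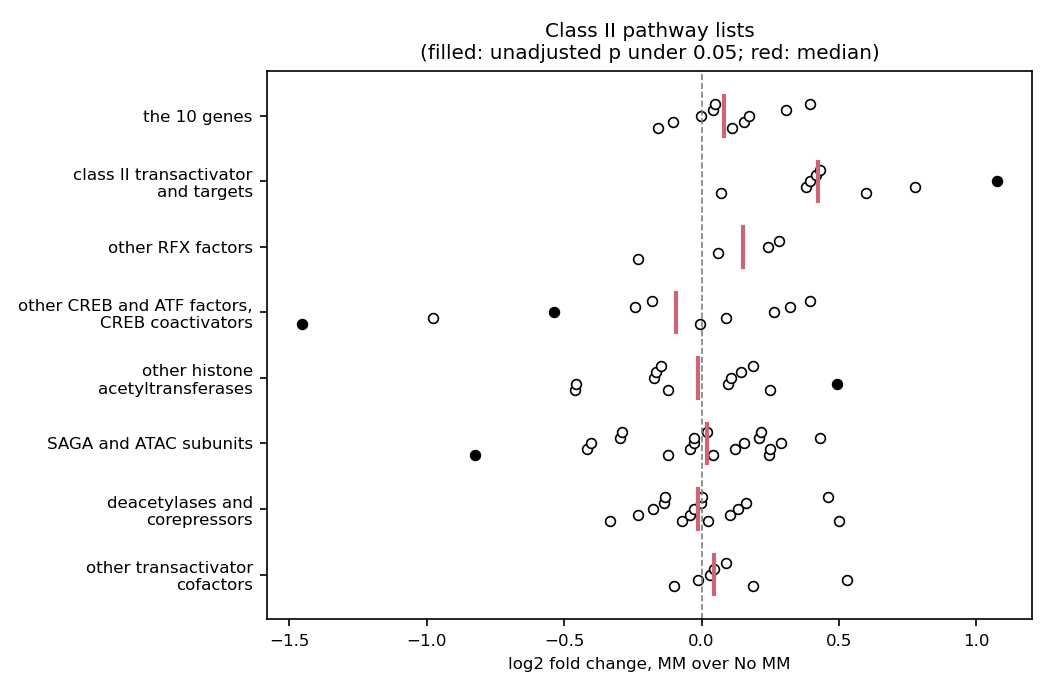
Log2 fold change, MM over No MM (horizontal axis), of each tested gene in the 10-gene group and in 7 pathway lists, with filled points for an unadjusted p under 0.05 and a red bar for the list's median. The class II list lies above 0 with a median of 0.42 and Ciita filled at 1.08, and Creb3l2 lies lowest at -1.45.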

How the data were processed

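RNA of osteocytes from 10 mice, 5 No MM and 5 MM, was made into stranded total RNA libraries and sequenced as 76-base pairs. The labels give no more than 1 library per mouse. The submitters' processing notes name STAR and FastQC 0.11.5; the counting program, annotation and genome build are not given in the sources used here. The authors deposited whole-number read counts for 22548 genes, which were used here. The deposited table also holds the authors' normalized signal and FPKM per library, and log2 fold changes and p-values of their own comparison; these were checked for their unit and not used. Of the gene identifiers 22284 are in GENCODE M21 (GRCm38), 68.4% at the same coordinates.

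Groups were taken from the labels. Counts were filtered with filterByExpr, scaled by TMM and compared with glmQLFit and glmQLFTest of edgeR 4.0.16 in R 4.3.3, without covariates, with Benjamini-Hochberg adjustment over all 16186 genes and a threshold of 0.05. CPM uses TMM-scaled library sizes, log2 CPM a prior count of 2, and RPKM the gene length in the table. The limit of 3 reads is 0.0709 to 0.114 CPM and covers counting error only. The edgeR p-values and intervals take in the variation between libraries, with dispersions moderated over all genes. SEs were computed as the size of the log2 fold change over the square root of the F statistic. The 95% intervals were built from these SEs. The immunoglobulin share covers 234 genes. Alternatives were DESeq2 1.42.0, other scaling and filters, no immunoglobulin genes, and left-out libraries. Both tests were tested on simulated data.

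The 10 genes and the pathway and marker lists were chosen with earlier results of these data known. By rule, the text names the 10 genes, up to 3 genes per list with the smallest p, the 3 genes most like Rfx5 and overlapping genes; the other class II genes, Rfx6, Rfx4, Rfx8 and Gm9144 were named after their values were seen. 1 gene that this rule would name is not reported here.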

Additional observations from a re-analysis of the deposited data

Results flagged for a closer look

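Of 20 groups of 5 libraries (10 genes in No MM and in MM), 2 held a library far from the other 4, where chance alone flags about 1 in 20. Rfxap in No MM 2 was 16.8 CPM against 13.8 to 14.5 CPM in the other No MM libraries, a gap of 0.773 of the group's range. Creb1 in No MM 1 was 31.5 CPM against 60.1 to 71.3 CPM, a gap of 0.718 of the range. Dixon's critical value for 5 libraries is 0.71.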

How the results depend on the processing

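No gene of the 10 had an adjusted p under 0.05 in any of the 17 alternatives, the smallest being 0.167 for Crebbp without No MM 5. The number of the 10 higher in MM at an unadjusted p under 0.05 was 1 without No MM 3 and No MM 4 (Rfx5), and 0 to 1 when single libraries were left out. Over all genes, the count with an adjusted p under 0.05 was 0 by edgeR in every other alternative and 224 by DESeq2; the cause was not tested. The log2 fold change of Rfx5 turned from -0.11 to 0.51 without No MM 3 and No MM 4 and ran from -0.26 to 0.17 with single libraries left out, above 0 without No MM 3 (0.03) or No MM 4 (0.17). Nfyb turned to -0.012 without these 2 libraries. Nfya ran from -0.0063 (without MM 8) to 0.098 with single libraries left out. Nfyc, near 0 in the fit of all libraries, was 0.021 by DESeq2, 0.019 with RLE size factors, 0.026 with upper-quartile factors, 0.0075 with no filter, 0.019 with at least 10 reads in every library, and -0.10 to 0.20 with single libraries left out. Rfxap, Rfxank, Creb1, Crebbp, Ep300 and Kat2b kept their sign in all 17; with single libraries left out they ran from 0.020 to 0.10, -0.25 to -0.071, 0.15 to 0.39, 0.25 to 0.52, 0.096 to 0.24 and 0.032 to 0.24, and Nfyb from 0.027 to 0.22. The study describes its own comparison as paired, but the labels match no No MM mouse to an MM mouse. No paired analysis was possible because mice are numbered 1 to 5 in No MM and 6 to 10 in MM. No alternative moved the median log2 fold change of all genes by over 0.1. Each of the 10 genes had at least 373 reads in every library, so that a count near 0 limited none of them.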
